A study of Mus musculus with 8 samples.

Results

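Red blood cell genes were examined in the pancreas: the adult α-globin genes *Hba-a1* and *Hba-a2*, the adult β-globin genes *Hbb-bs* and *Hbb-bt*, and *Alas2*, the erythroid form of the first enzyme of heme synthesis. They were taken by exact gene name, and all 5 of 5 listed genes were found among the 48709 genes of each expression table. Hemoglobin is made of paired α- and β-globin chains, each holding a heme. Red cell precursors in marrow and spleen make nearly all of it, and young red cells (reticulocytes) that have lost their nucleus still carry globin mRNA into the blood. The adult pancreas makes no red cells, and globin transcripts in solid organs are commonly regarded as carried there by blood. In such bulk samples, fewer red cells and less RNA per red cell cannot be told apart.

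RNA-Seq of whole pancreas was available for 8 libraries from 8-week-old male mice, 2 in each of 4 groups. WT mice and mice with a pancreas-specific *Pfkfb3* knockout (cKO; *Pfkfb3* fl/fl; *Pdx1*-Cre) received either normal saline or palmitoleic acid with ethanol, which produces a severe alcoholic pancreatitis (FAEE-SAP), and tissue was taken 24 hours later. The *Pdx1* promoter drives Cre in cells of the pancreatic lineage and not in the blood line. According to the methods, the WT mice were bought from a supplier and the cKO mice were bred from a floxed line, so that colony and genotype cannot be told apart. No perfusion step is given in the sources used here. Values were RPKM, that is, reads per kilobase of exon scaled to the number of reads in the library, and the estimated library totals were 22.8 to 37.6 M reads. As a check of the labels, scaled *Pfkfb3* RPKM was 0.880 and 2.10 in cKO against 1.70 and 1.69 in WT among the saline libraries, and 1.74 and 2.82 in cKO against 1.85 and 3.21 in WT among those with FAEE-SAP, so the transcript did not separate the genotypes. The knockout removes 2 exons, which a value for the whole gene need not show. Pancreatic identity was clear, with the acinar enzyme genes *Cpa1* and *Pnlip* at scaled RPKM of at least 4239 and 6337 in every library.

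The α-globin genes lie on chromosome 11 (GRCm38), *Hba-a1* at 32283511-32284465 and *Hba-a2* at 32296489-32297298, both on the plus strand. The β-globin genes lie on the minus strand of chromosome 7, *Hbb-bs* at 103826534-103828096 and *Hbb-bt* at 103812524-103813996. Each globin gene has 3 exons in its first annotated transcript. *Alas2* lies on chromosome X at 150547375-150570638 on the plus strand, with 11 exons. The globin genes of a pair are close to identical in their coding sequence. *Hba-a1* and *Hba-a2* differed at 1 of 429 coding bases (C381T, the *Hba-a1* base first, counted from the A of the start codon), and *Hbb-bs* and *Hbb-bt* at 1 of 444 (C417T). Both differences fall on the third base of a codon. The stretches around them are shown because they are the only coding bases by which reads of a pair can be told apart; the capital marks the base that differs.
Hba-a1: catgcctctctggaCaaattccttgcctc
Hba-a2: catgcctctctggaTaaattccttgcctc
Hbb-bs: gtggctggagtggcCgctgccctggctca
Hbb-bt: gtggctggagtggcTgctgccctggctca
Of all 75-base windows of coding sequence, 86.2% were identical in the α pair and 92.4% in the β pair. The values of the single genes of a pair are therefore uncertain where reads could be split between the copies, and the sums over a pair are the firmer measurement. How reads that match both copies were assigned is not given in the sources used here.

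As the members moved together, their promoters were compared, with the 250 bases before the RefSeq start (GRCm38.p6) searched on both strands for 4 short motifs. These were TATAA (the core of a TATA box), CCAAT (the CCAAT box), CACCC (bound by KLF factors) and GATAA (bound by GATA factors). Of 32851 promoters of the same length, TATAA was in 22.8%, the CCAAT box was in 33.8%, while CACCC was in 52.0% and the GATAA motif in 22.6%. Each of the 4 globin promoters held all 4 motifs. TATAA began 27 to 30 bases and CCAAT 75 to 91 bases before the start in all 4 globin promoters, and GATAA began 182 to 209 bases before it. The *Alas2* window held each motif except the CCAAT box. The *Hba-a2* promoter, which matched that of *Hba-a1* at 240 of 240 aligned bases, is given from chr11:32296242-32296488 (plus strand), and the *Alas2* promoter from chrX:150547167-150547374 (plus strand), both ending before the first annotated transcribed base. They are shown as the α-globin and the heme enzyme side of the set, with motif matches on either strand in capitals. In *Alas2*, its TATAA matches on the plus and minus strands overlap, and its CACCC matches lie past the end of the printed stretch.
Hba-a2: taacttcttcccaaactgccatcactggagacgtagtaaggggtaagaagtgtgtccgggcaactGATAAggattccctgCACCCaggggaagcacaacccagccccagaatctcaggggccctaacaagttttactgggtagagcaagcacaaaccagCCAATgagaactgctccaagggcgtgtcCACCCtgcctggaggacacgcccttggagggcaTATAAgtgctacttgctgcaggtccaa
Alas2: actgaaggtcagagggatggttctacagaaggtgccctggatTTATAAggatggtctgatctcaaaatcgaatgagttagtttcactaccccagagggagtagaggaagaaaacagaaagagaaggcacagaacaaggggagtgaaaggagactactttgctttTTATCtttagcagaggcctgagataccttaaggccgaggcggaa
A match is a run of letters only and no binding was measured.

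All 5 genes were detected in all 8 libraries. *Hbb-bs*, an adult β chain gene, had the highest level. As deposited, its RPKM was 39.4 and 53.1 in WT saline, 52.7 and 123 in WT FAEE-SAP, 91.8 and 20.5 in cKO saline, and 71.3 and 72.8 in cKO FAEE-SAP (replicates 1 and 2 in each pair). The highest and the lowest of these were a WT FAEE-SAP and a cKO saline library, and the replicates of both groups lay on either side of the cKO FAEE-SAP pair. *Hba-a2* followed, at 27.5 and 36.9 in WT saline, 34.1 and 93.9 in WT FAEE-SAP, 64.2 and 13.9 in cKO saline, and 44.5 and 56.0 in cKO FAEE-SAP. *Hba-a1*, which encodes the same chain, was at 15.4 and 22.5, at 23.2 and 55.8, at 40.2 and 7.49, and at 30.6 and 33.7 in the same order of groups. The 2 α genes ranked the ends of the series alike, with WT FAEE-SAP replicate 2 highest and cKO saline replicate 2 lowest. *Hbb-bt*, the other adult β gene, stood far lower, at 5.81 and 7.44 in WT saline, 5.77 and 21.0 in WT FAEE-SAP, 15.2 and 2.85 in cKO saline, and 10.4 and 9.29 in cKO FAEE-SAP. *Alas2* was near 1 RPKM or below, at 0.440 and 0.624, at 0.218 and 0.902, at 0.783 and 0.186, and at 0.739 and 0.659. The same 2 libraries were again highest and lowest for both genes.

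**Figure D1:**
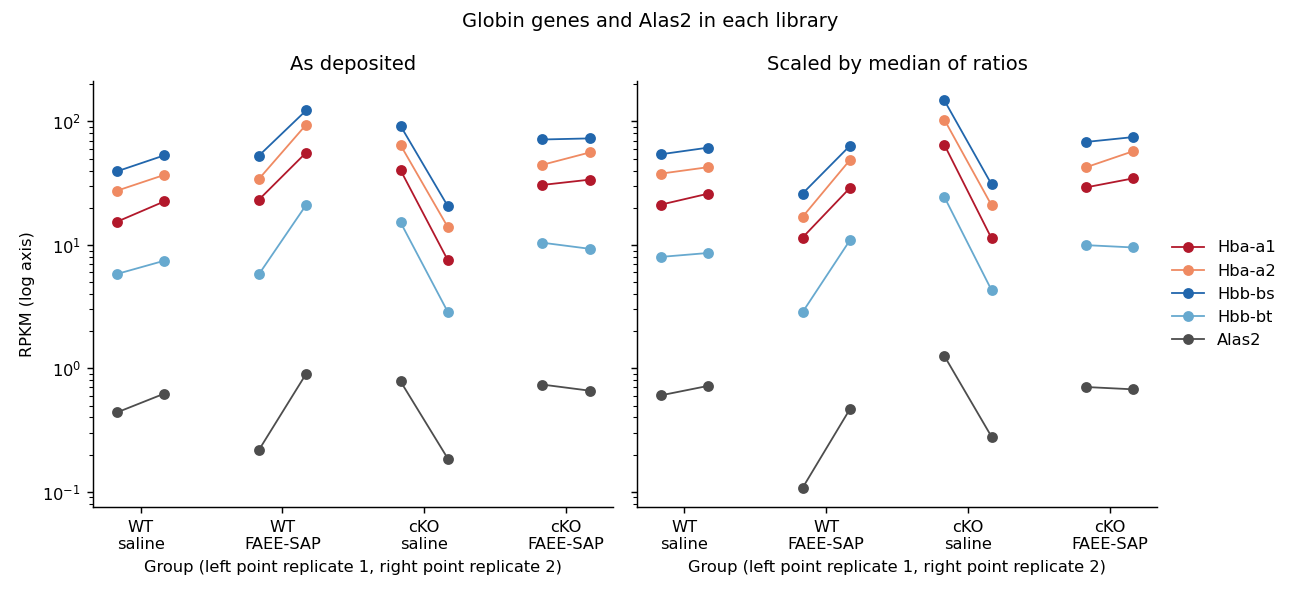
RPKM of the 5 red cell genes (log axis) in each of the 8 libraries, as deposited on the left and scaled by median of ratios on the right; lines join the 2 replicates of a group. The 5 lines run nearly parallel, and the steepest steps lie between replicates of cKO saline and of WT FAEE-SAP.

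The 4 globin genes together made up 0.00771% to 0.0594% of the summed RPKM, or 33.1 to 217 reads in each M of the library. This corresponded to about 1035 to 7068 reads per library, with the read number recovered from the RPKM steps and the exon lengths. *Alas2* rested on far fewer, about 11.95 reads in WT FAEE-SAP replicate 1, 13.9 in cKO saline replicate 2 and 29.9 to 70.7 in the other libraries. For *Alas2* counting error is thus part of the spread, while for the summed globin genes it is small beside differences of several fold.

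Acinar enzyme transcripts take up a large share of the reads of healthy pancreas, so that RPKM of other genes also moves with their level. Scaling by median of ratios divided the RPKM by factors of 0.728 and 0.866 in WT saline, 2.02 and 1.94 in WT FAEE-SAP, 0.621 and 0.665 in cKO saline, and 1.05 and 0.975 in cKO FAEE-SAP. After scaling, *Hbb-bs* was at 54.1 and 61.3 in WT saline, 26.0 and 63.3 in WT FAEE-SAP, 147.9 and 30.9 in cKO saline, and 68.2 and 74.6 in cKO FAEE-SAP. *Alas2* was at 0.604 and 0.721, at 0.108 and 0.466, at 1.26 and 0.279, and at 0.706 and 0.676. The highest library for all 5 genes was now cKO saline replicate 1, and the lowest was WT FAEE-SAP replicate 1 for 4 of 5 genes and cKO saline replicate 2 for *Hba-a1*.

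The order of the group means turned with the scaling. On the scaled values, *Hbb-bs* averaged 89.4 ± 82.7 RPKM in cKO saline, 71.4 ± 4.58 in cKO FAEE-SAP, 57.7 ± 5.05 in WT saline and 44.7 ± 26.4 in WT FAEE-SAP (SD, n = 2). The other 4 genes had the same order of means. As deposited, WT FAEE-SAP moved from last to first for *Hbb-bs*, with 87.6 ± 49.4, followed by cKO FAEE-SAP at 72.1 ± 1.04, cKO saline at 56.2 ± 50.4 and WT saline at 46.2 ± 9.66. The 3 other globin genes again had this order. *Alas2* as deposited averaged 0.699 ± 0.0562 in cKO FAEE-SAP, 0.560 ± 0.484 in WT FAEE-SAP, 0.532 ± 0.130 in WT saline and 0.484 ± 0.422 in cKO saline. For scaled *Hbb-bs*, the pair of cKO saline values enclosed the other libraries apart from WT FAEE-SAP replicate 1. The WT FAEE-SAP pair (26.0 and 63.3) enclosed WT saline (54.1 and 61.3), whereas cKO FAEE-SAP (68.2 and 74.6) lay above WT saline without overlap.

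The spread between replicates was the main feature of these genes. On the scaled values the higher cKO saline library exceeded the lower by 5.74-fold for *Hba-a1*, 4.95-fold for *Hba-a2*, 4.79-fold for *Hbb-bs*, 5.70-fold for *Hbb-bt* and 4.52-fold for *Alas2*. In WT FAEE-SAP the 2 libraries differed by 2.43-fold (*Hbb-bs*) to 4.33-fold (*Alas2*). Replicates were much closer in WT saline, at 1.08- to 1.23-fold, and in cKO FAEE-SAP, at 1.04- to 1.35-fold. The within-group SD over the 8 libraries was 1.01 for *Hba-a1*, 0.99 for *Hba-a2*, 0.92 for *Hbb-bs*, 1.10 for *Hbb-bt* and 0.83 for *Alas2* on the log2 scale. Over 11133 genes the median was 0.25, and the 5 values lay above those of 96.5% to 98.5% of genes. Among genes within 0.5 log2 units of the same mean level, they lay above 96.0% to 99.3%.

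**Figure D2:**
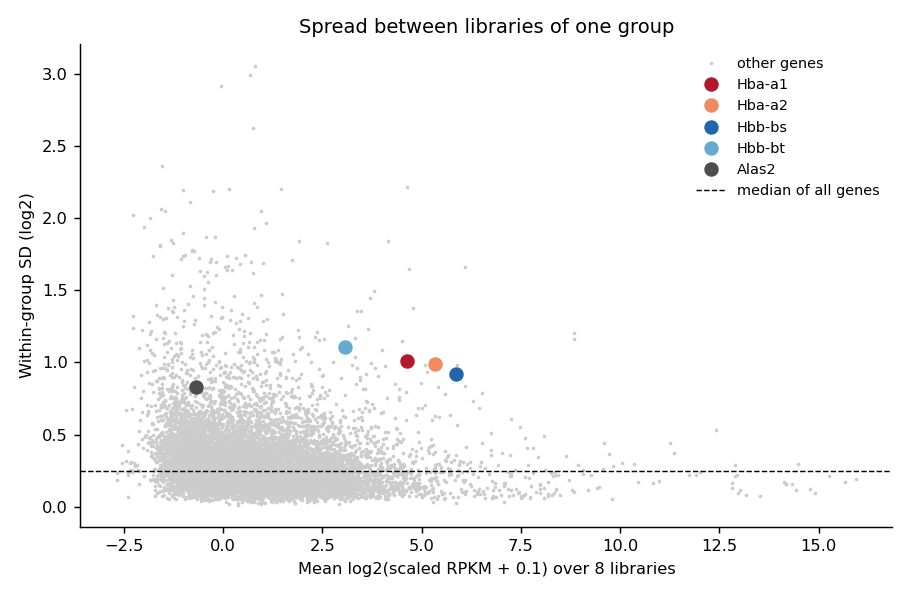
Within-group SD of log2(scaled RPKM + 0.1) against the mean over the 8 libraries, 1 point per gene, with the 5 red cell genes in color and the median of 11133 genes as a dashed line. The 5 genes lie between 0.83 and 1.10, above the median of 0.25.

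The next comparison asked whether loss of *Pfkfb3* in the pancreas altered the level of red cell transcripts in the injured organ. With FAEE-SAP, all 5 genes had higher mean levels in cKO than in WT, but none passed the test. The log2 difference was 0.79 for *Hba-a1* (SE 0.43), 0.78 for *Hba-a2* (SE 0.50), 0.80 for *Hbb-bs* (SE 0.41) and 0.78 for *Hbb-bt* (SE 0.59), with limma adjusted p of 0.354 to 0.520. *Alas2* differed by 1.29 (95% interval -0.04 to 2.62; limma adjusted p = 0.268). The numbers called were 0 of 5 by limma (adjusted p below 0.05 and at least 2-fold) and 0 of 5 at an unadjusted p below 0.05, against 1.27% and 19.5% of the 11008 genes tested. With the values scaled within these 4 libraries, as in the test, cKO and WT did not overlap for 2 of 5 genes, *Hbb-bs* and *Alas2*, against 51.8% of all genes. Scaled over all 8 libraries, as the levels are printed here, *Hba-a1* did not overlap either, at 29.2 and 34.6 in cKO against 11.5 and 28.8 in WT, which made 3 of 5 (a count added after the data were seen) against 51.9% of all genes. As deposited the 4 globin differences changed sign, to between -0.18 and -0.16, while the median gene stood at -0.91 on that scale. *Alas2* as deposited overlapped between the genotypes, at 0.739 and 0.659 in cKO against 0.218 and 0.902 in WT. Without WT FAEE-SAP replicate 1, the log2 differences on the scaled values lay near 0 for *Hba-a2*, at -0.01, and fell to 0.14 for *Hbb-bs* and 0.47 for *Alas2*. Over the runs with 1 library left out, they reached up to 1.43 for *Hbb-bs* and 2.03 for *Alas2*, and from -0.19 to 1.72 for *Hbb-bt*.

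With saline the genotypes differed less, and the interval of every gene included 0 by a wide margin. The log2 difference of cKO from WT was 0.18 for *Hba-a1*, 0.19 for *Hba-a2*, 0.20 for *Hbb-bs*, 0.28 for *Hbb-bt* and -0.09 for *Alas2* (limma adjusted p = 0.999 for each). The interval reached from -1.98 to 2.33 for *Hba-a1*, that is, from 0.254-fold to 5.04-fold. By limma 0 of 5 were called, and 0 of 5 at an unadjusted p below 0.05, against 0% and 2.15% of 8715 genes. Groups overlapped for all 5 genes, whereas 27.9% of all genes did not overlap. The libraries in question were the 2 of cKO saline: without replicate 1 the *Hbb-bs* difference was -0.93, and without replicate 2 it was 1.33.

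Injury itself was compared in each genotype. In WT mice, mean levels of all 5 genes were lower with FAEE-SAP than with saline on the scaled values, without passing the test. The log2 difference was -0.37 for *Hba-a1*, -0.49 for *Hba-a2*, -0.51 for *Hbb-bs* and -0.57 for *Hbb-bt* (limma adjusted p of 0.472 to 0.630), and -1.21 for *Alas2* (95% interval -2.50 to 0.07; limma adjusted p = 0.202). Here 0 of 5 were called by limma and 0 of 5 had an unadjusted p below 0.05, against 6.93% and 27.7% of 10894 genes. *Alas2* was the only one of the 5 whose groups did not overlap, compared with 58.8% of all genes. As deposited its groups overlapped, at 0.440 and 0.624 with saline and 0.218 and 0.902 with FAEE-SAP, and the log2 difference was -0.15. As deposited, the globin genes were higher with FAEE-SAP, by 0.74 to 0.95, where the median gene was higher by 1.24. Without WT FAEE-SAP replicate 1 the scaled globin differences also turned, to between 0.17 and 0.42. In cKO mice the log2 difference was 0.26 for *Hba-a1*, 0.12 for *Hba-a2*, 0.11 for *Hbb-bs*, -0.05 for *Hbb-bt* and 0.15 for *Alas2* (limma adjusted p of 0.932 to 0.988). Again 0 of 5 were called and 0 of 5 had an unadjusted p below 0.05, against 0.0531% and 9.42% of 9423 genes, and all 5 overlapped, where 43.2% of genes did not. The *Hbb-bs* difference was 1.24 without cKO saline replicate 1 and -1.01 without replicate 2.

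The response to FAEE-SAP was then compared between genotypes with an interaction term. The difference of responses (cKO less WT) was 0.60 for *Hba-a1*, 0.57 for *Hba-a2*, 0.58 for *Hbb-bs*, 0.48 for *Hbb-bt* and 1.29 for *Alas2*, with limma adjusted p of 0.600 to 0.893. By limma 0 of 5 were called, and 0 of 5 at an unadjusted p below 0.05, against 0.0719% and 12.6% of 11133 genes. For *Hbb-bs* it was -0.06 without WT FAEE-SAP replicate 1 and -0.55 without cKO saline replicate 2. Over the runs with 1 library left out it reached up to 1.70. These comparisons share groups, so their values are not independent of each other.

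**Figure D3:**
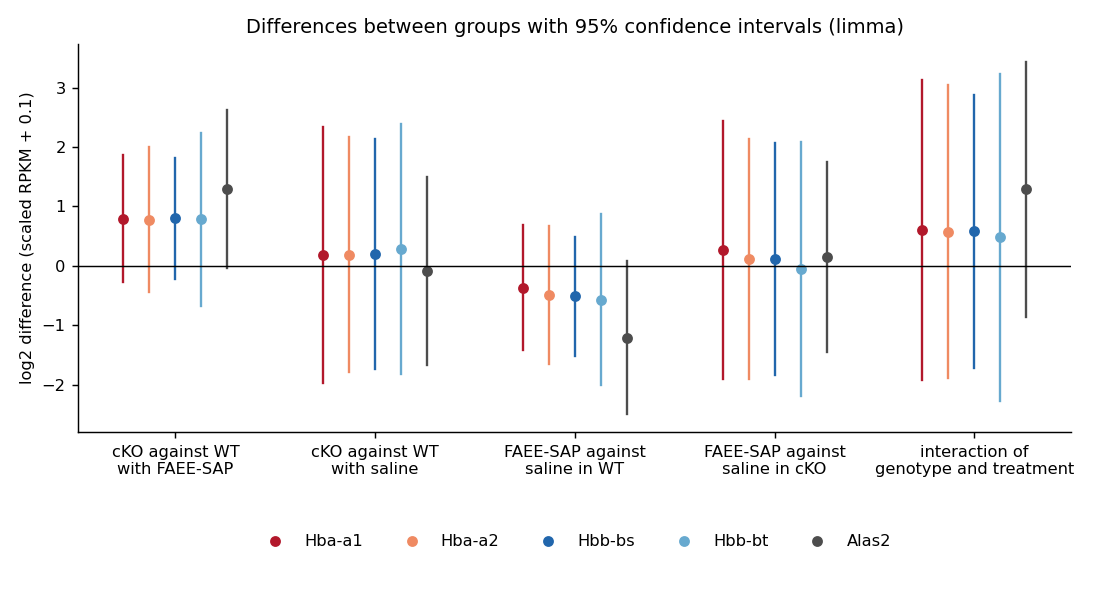
Log2 differences in scaled RPKM + 0.1 (points) with 95% confidence intervals from limma (bars) for the 5 genes in 4 pairwise comparisons and the interaction of genotype and treatment. Every interval crosses 0.

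Ratios between the genes do not depend on how a library is scaled, and they were far steadier than the levels. *Hba-a1* stood to *Hba-a2* at 0.539 to 0.687 in RPKM over the 8 libraries, a range of 1.27-fold. In reads, with each RPKM multiplied by its exonic length of 812 or 667 bases, this was 0.656 to 0.836. *Hbb-bs* stood to *Hbb-bt* at 5.83 to 9.13, and both ends of this range came from WT FAEE-SAP. The summed α genes stood to the summed β genes at 0.915 to 1.09, close to the equal numbers of chains in hemoglobin, although RPKM is not a chain count. *Alas2* amounted to 0.188% to 0.521% of the summed globin RPKM. It was 0.499% and 0.521% in WT saline, 0.188% and 0.308% in WT FAEE-SAP, 0.370% and 0.414% in cKO saline, and 0.471% and 0.384% in cKO FAEE-SAP.

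Each ratio was tested for treatment and for genotype, 4 libraries against 4, with an exact two-sided permutation test whose smallest possible p is 0.0286. After adjustment over the 8 tests no single ratio could pass at this size, whatever its values, so the ratios are given as sizes. The lowest p was for *Alas2* to summed globin, with a geometric mean of 0.320% with FAEE-SAP and 0.447% with saline (log2 difference -0.48; exact permutation p = 0.143, adjusted p = 0.610). The ratio of *Hba-a1* to *Hba-a2* was 0.639 with FAEE-SAP and 0.583 with saline (exact permutation p = 0.171, adjusted p = 0.610), and its values by genotype were 0.611 in cKO and 0.610 in WT.

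**Figure D4:**
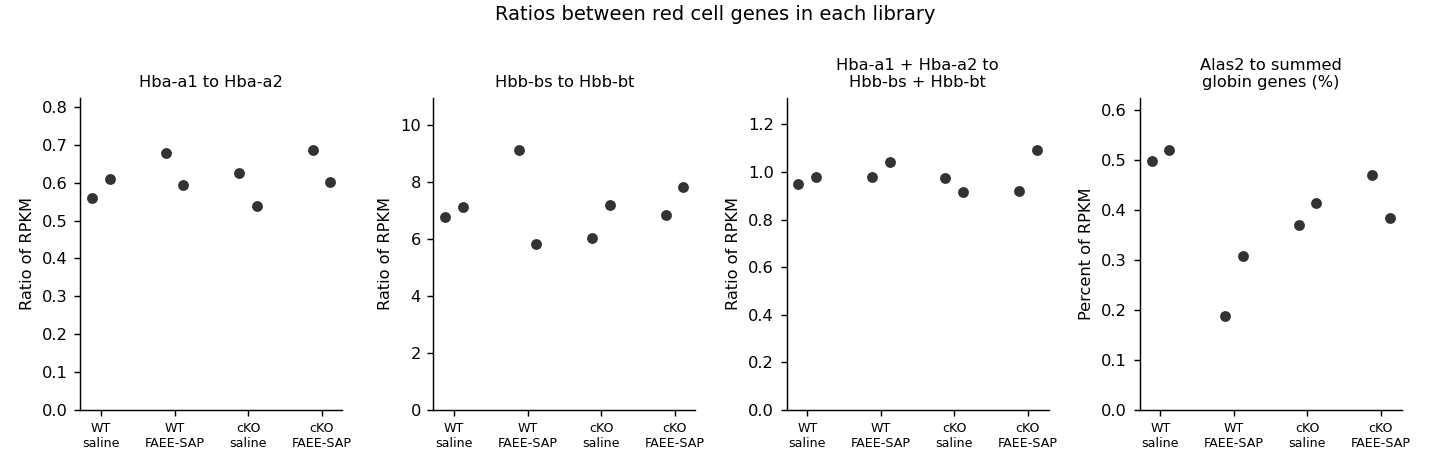
Ratios between red cell genes in each library (points, replicate 1 left and replicate 2 right of each group), all axes starting at 0. Summed α to summed β stays between 0.915 and 1.09 in all 8 libraries, and *Alas2* to summed globin is lowest in the 2 WT FAEE-SAP libraries.

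Over the 8 libraries the log2 levels of the 4 globin genes were correlated with Pearson r of 0.970 to 0.993 for the 6 pairs, and *Alas2* with each globin gene at 0.905 to 0.941. The points share library, depth and scaling, and reads of a pair may be split, so that these values are descriptions. Among 11128 other genes, those most like the mean profile of the 5 genes were *Cdc23* (r = 0.964), *Fbxo25* (0.958), *Timm8a1* (0.944), *Fam126b* (0.934), *Zfp141* (0.934), *Zfp97* (0.925), *Cnbp* (0.924), *Mipep* (0.917), *Pcsk6* (0.909) and *Esf1* (0.905), each over 8 libraries. Their levels varied little, with an SD of 0.17 to 0.37 on the log2 scale, and in all 12 genes had r above 0.9. No other listed red cell gene was among them. The closest gene of heme synthesis was *Cpox* (r = 0.762, place 101), and the closest of iron handling was *Ftl1*, a ferritin light chain gene (r = 0.765, place 96).

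Other genes of the red cell line were mostly at or near 0. Of 6 embryonic and other globin genes matched by name, 5 were at 0 in every library, and *Hbq1a* had a value only in cKO FAEE-SAP replicate 2 (0.107 RPKM). The α-chain chaperone *Ahsp* was not matched by name. Of 22 genes for red cell membrane proteins and enzymes, 16 stayed below 0.5 RPKM in every library. *Slc4a1*, which encodes the band 3 anion exchanger, did not exceed 0.0198 RPKM. *Rhag* and *Car1* were at 0 throughout. The genes that were measured in this list, such as *Aqp1* at 5.22 to 10.6 scaled RPKM, *Bpgm* at 2.30 to 3.88 and *Epb41* at 2.01 to 4.53, are also made by other cells. Of the 9 erythroid transcription factors and receptor genes, 6 stayed below 0.5 RPKM in every library, and the other 3 were *Ldb1* at 4.51 to 6.72 scaled RPKM, *Zfpm1* at 1.77 to 6.58 and *Lmo2* at 0.641 to 1.68. *Gata1* was at most 0.0376 RPKM and *Klf1* at most 0.0570, each resting on no more than about 3 reads. *Gata1* and *Klf1* are made in nucleated red cell precursors.

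**Figure D5:**
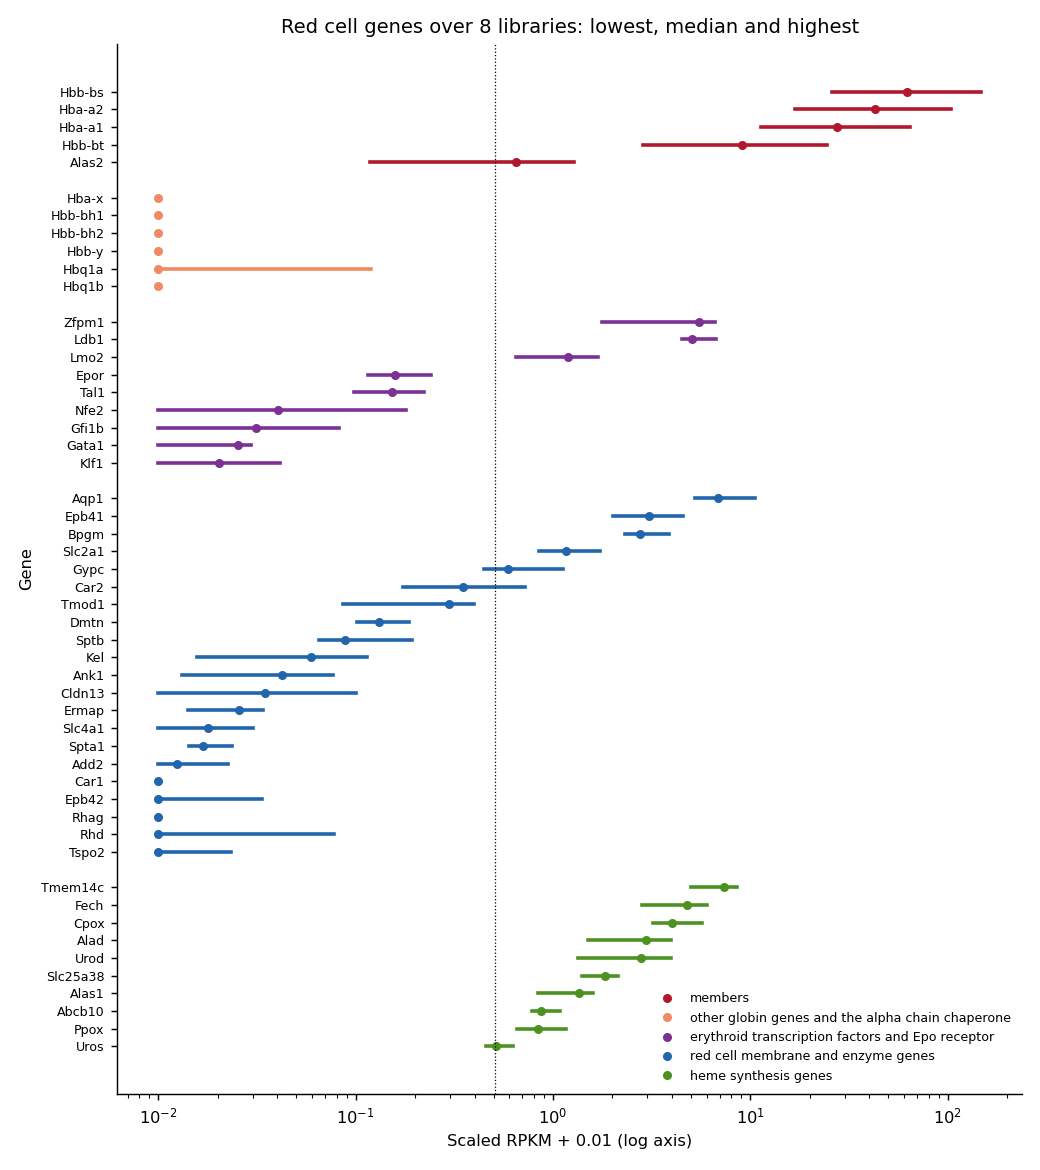
Lowest, median (point) and highest scaled RPKM over the 8 libraries (log axis, 0.01 added) for the 5 red cell genes and genes of 4 related lists; the dotted line marks a scaled RPKM of 0.5. The globin genes lie between 2.85 and 147.9, while *Slc4a1*, *Gata1* and *Klf1* lie near the left edge.

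Of the 10 reticulocyte maturation genes 7 were tested, and of the 9 erythroid regulators 3. In WT with FAEE-SAP 1 gene of each list was called, against 6.93% of all genes, and for cKO against WT with FAEE-SAP 1 and 0, against 1.27%. *Tent5c*, which encodes a cytoplasmic poly(A) polymerase and was matched through its older symbol *Fam46c*, fell with FAEE-SAP in WT (log2 difference -2.34; limma adjusted p = 0.00681) and was higher in cKO than in WT with FAEE-SAP (1.89; limma adjusted p = 0.0350). Its scaled RPKM was 14.1 and 12.8 in WT saline, 2.19 and 3.10 in WT FAEE-SAP, 16.1 and 14.7 in cKO saline, and 10.5 and 9.41 in cKO FAEE-SAP. Replicates of *Tent5c* were thus close where those of the globin genes were not. *Zfpm1*, which encodes the GATA cofactor FOG1, fell in WT with FAEE-SAP on the scaled values (-1.40; limma adjusted p = 0.0396), but as deposited its groups overlapped, at 3.86 and 5.70 with saline and 5.54 and 3.43 with FAEE-SAP. In the other comparisons 0 genes of either list were called.

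All 11 heme synthesis genes other than *Alas2* were expressed, and 0 of the 10 or 11 tested were called by limma in any comparison. *Alas1*, the form of the enzyme made in all tissues, exceeded *Alas2* in every library, at 0.833 to 1.59 scaled RPKM. *Fech*, which inserts iron into the heme ring, was at 5.07 and 4.79 in WT saline and 3.30 and 2.82 in WT FAEE-SAP (log2 difference -0.69; limma adjusted p = 0.0905). At an unadjusted p below 0.05 there were 3 of 11 genes of the list both there and for cKO against WT with FAEE-SAP, against 27.7% and 19.5% of all genes, and 0 in the other comparisons.

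Of the 15 genes tested that handle free hemoglobin, heme and iron, 3 were called in WT with FAEE-SAP, against 6.93% of all genes. *Hp*, which encodes the hemoglobin-binding plasma protein haptoglobin, an acute-phase protein, was at 2.89 and 3.74 scaled RPKM in WT saline and 49.4 and 80.5 in WT FAEE-SAP. This rise was 4.22 on the log2 scale (limma adjusted p = 0.00279). In cKO, *Hp* was at 9.69 and 3.10 with saline and 18.8 and 3.65 with FAEE-SAP, and the difference of 0.62 did not pass the test. *Hmox1*, the inducible heme oxygenase, rose in WT from 1.71 and 1.47 to 6.21 and 8.08 (2.10; limma adjusted p = 0.00878). In cKO it was at 1.53 and 2.30 with saline and 5.77 and 6.25 with FAEE-SAP (1.64; limma adjusted p = 0.231). *Hamp2*, a hepcidin gene made in pancreas, fell in WT from 35.7 and 30.5 to 7.42 and 4.15 (-2.56; limma adjusted p = 0.0110). In cKO, *Hamp2* was also lower, at 48.3 and 35.0 with saline and 16.5 and 19.3 with FAEE-SAP, without overlap but not called. *Cd163*, the haptoglobin-hemoglobin receptor of macrophages, was at 1.46 to 2.93 across the libraries and was not called, and the heme-binding protein gene *Hpx* did not exceed 0.233 RPKM as deposited. The 3 calls in WT were 2 higher and 1 lower, and 0 genes of the list were called in the other comparisons. At an unadjusted p below 0.05 there were 6 of 15 in WT, against 27.7% of all genes, and 5 of 14 in cKO, against 9.42%. The list had a median log2 difference of 0.11 in WT against 0.02 over all genes. The directions of *Hp*, *Hmox1* and *Hamp2* were the same in the values as deposited. Within the WT FAEE-SAP pair, replicate 2 was higher than replicate 1 in *Hp* and also in scaled *Hbb-bs*, at 63.3 against 26.0. Over the 8 libraries, *Hp* had r = -0.13 with the mean profile of the 5 red cell genes.

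Transcripts of other blood and tissue cells are given beside these results, and their part in them was not tested. The 14 neutrophil genes summed to 65.0 and 61.1 scaled RPKM in WT FAEE-SAP, where the 4 globin genes summed to 57.2 and 151.6. All 9 neutrophil genes tested rose in WT with FAEE-SAP, against 6.93% of all genes called, among them *S100a8* from 0.139 and 0.304 to 18.6 and 15.8. With FAEE-SAP 3 of the 9, *S100a8*, *Retnlg* and *Fpr1*, were lower in cKO than in WT (limma adjusted p = 0.0302, 0.0255 and 0.0156), against 1.27% of all genes called, and *Fpr1* was also called in the interaction (-4.60; limma adjusted p = 0.0380), against 0.0719%. In cKO FAEE-SAP the neutrophil sum was 14.4 to 21.3, and in the saline groups 1.86 to 4.49. The 13 platelet genes, another anucleate blood cell, summed to 2.03 and 3.23 in WT saline, 4.99 and 9.37 in WT FAEE-SAP, 4.82 and 2.87 in cKO saline and 15.6 and 13.1 in cKO FAEE-SAP. Of these *Ppbp* rose in WT with FAEE-SAP (2.35; limma adjusted p = 0.0273), whereas *Pf4* was not called. *Ppbp* rested on about 1 read in each WT saline library. In cKO *Ppbp* was at 0.0788 and 0 scaled RPKM with saline and 2.81 and 1.65 with FAEE-SAP. *Pf4* was there at 4.08 and 1.59 with saline and 10.5 and 9.98 with FAEE-SAP. In cKO 0 platelet genes were called, and 2 of 2 tested had an unadjusted limma p below 0.05, against 9.42% of all genes. Of the 13 platelet genes 9 stayed below 0.5 RPKM in every library.

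In cKO saline, the library with the higher globin sum, at 340.3 against 67.3, also had the higher neutrophil sum, at 4.49 against 2.08, and the higher platelet sum, at 4.82 against 2.87. Gene by gene the lists were mixed, with 8 neutrophil genes higher in that library and 5 lower, 5 platelet genes higher and 4 lower, and 8 genes of hemoglobin, heme and iron handling higher and 8 lower. Over all 8 libraries, r with the mean profile of the 5 red cell genes was -0.42 to -0.02 for the 9 neutrophil genes and -0.17 to 0.34 for the 4 platelet genes that passed the filter on low values, descriptions over points that share depth and scaling. In the cKO saline pair, with the globin-high library first, endothelial genes, 13 of 13 measured with *Pecam1* and *Cdh5* among them, summed to 31.9 and 32.1, lymphocyte genes (12 of 12) to 13.1 and 13.97, and spleen markers (8 of 9 at 0.5 RPKM or more in at least 2 libraries) to 13.4 and 12.1. The 12 acinar genes summed to 397876 and 399381 there and to 231575 and 256903 in the cKO pair given FAEE-SAP. The WT sums were 342466 and 288918 with saline and 89350 and 95981 with FAEE-SAP. Of these genes 11 fell in WT with FAEE-SAP and 8 were higher in cKO than in WT with FAEE-SAP, against 6.93% and 1.27% of all genes called. On the values as deposited these differences kept their direction but were smaller, at -2.17 to -0.11 in WT and 0.31 to 1.97 between genotypes. Over all libraries the endothelial sum ranged from 29.4 to 50.8, the lymphocyte sum from 12.9 to 34.9 and the spleen marker sum from 12.1 to 39.0. Of 8 spleen markers tested in WT with FAEE-SAP, 2 were called, against 6.93% of all genes, the macrophage receptor genes *Marco*, which rose by 1.66 on the log2 scale (limma adjusted p = 0.0382), and *Cd209b*, which fell by 1.497 (limma adjusted p = 0.0482) although its groups overlapped as deposited, at 2.65 and 3.63 RPKM with saline and 3.69 and 1.89 with FAEE-SAP. Over all libraries *Marco* was at 6.76 to 32.9 scaled RPKM and *Cd209b* at 0.977 to 10.5, while *Spic* and *Cr2* did not exceed 0.465 and 0.604.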

How the data were processed

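Total RNA of pancreas was sequenced as paired-end reads of a directional library (NEBNext Ultra II). The authors filtered reads with fastp, mapped them to GRCm38.p6 with CLC Genomics Workbench and deposited RPKM values per gene, 1 table per library. How multiply mapped reads were counted, and which RNA selection was used, is not given in the sources used here. Groups were taken from the labels and genes by exact name. The members and lists were chosen with earlier results of these data known.

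RPKM was scaled by median of ratios, and log2(scaled RPKM + 0.1) was tested with limma 3.58.1 (R 4.3.3, intensity trend, Benjamini-Hochberg over all genes tested), on the 4 libraries of a comparison or all 8 for the interaction. Genes with at least 0.5 RPKM in at least 2 libraries were tested, and a call needed adjusted p below 0.05 and a 2-fold change. Fold changes on this scale understate those of low genes. Replicates are described as biological, with 2 per group. Library totals were recovered from steps of whole reads, using GENCODE exon lengths for 95.1% of genes; 84.5% to 85.9% of low values came out whole within 0.1 read and summed reads came to 100.3% to 105.7% of the totals, so read numbers are approximate and a count model was not used. At these depths 1 read on a 2 kb transcript was worth 0.0133 to 0.0219 RPKM. Ratios were tested by exact permutation (scipy 1.17.1). Named genes were the 5 members, up to 4 called genes per list, defining markers and the 10 genes most like the members; other genes given with values were chosen after these were seen. Names *Ahsp* and *Fth1* were not matched, and 2 genes counted in the lists are not reported singly here. The fitting procedure was tested on simulated data. Alternatives were the scaling, filter, pseudocount, trend, replicate block, fold minimum and leaving out each library. Coding sequences are from GENCODE vM21 and promoters from RefSeq.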

Additional observations from a re-analysis of the deposited data

How the results depend on the processing

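With 2 libraries per group, a difference below about the spread of a pair could not be detected, and *Alas2* rests on few reads. The number of red cell genes called by limma was 0 in all 5 comparisons. This held under every alternative that kept both libraries of each group (57 values), and no limma adjusted p was below 0.0695. The alternatives refit the same libraries for 5 genes that moved together, so their values are not independent. Calls over all genes moved more, from 140 to between 0 and 4427 for cKO against WT with FAEE-SAP, from 755 to between 97 and 7270 for FAEE-SAP in WT, from 5 to between 0 and 52 in cKO, from 8 to between 0 and 791 for the interaction and from 0 to between 0 and 2 with saline. Directions turned with the values as deposited. For cKO against WT with FAEE-SAP these were -0.16 (*Hba-a1*), -0.18 (*Hba-a2*), -0.16 (*Hbb-bs*) and -0.16 (*Hbb-bt*). With saline they were -0.10 (*Hba-a1*), -0.090 (*Hba-a2*) and -0.074 (*Hbb-bs*). For FAEE-SAP against saline in WT they were 0.95, 0.83, 0.81 and 0.74 in the same order of 4 genes, in cKO 0.56 for *Hbb-bt*, and for the interaction -0.066, -0.092, -0.083 and -0.17. These turns came with the scaling of the libraries compared. Over all 8 libraries the scaling factors exceeded 1.9 only in WT FAEE-SAP, which not all of these comparisons include. Quantile normalization gave 0.0039 (*Alas2*, saline), 0.060 (*Hbb-bt*, cKO) and -0.073 (*Alas2*, cKO), and a pseudocount of 1 gave 0.027 (*Alas2*, saline) and -0.0029 (*Alas2*, cKO). With 1 library left out in turn, the lone library of a group being assumed to vary like the others, log2 differences lay as follows. In 4 of these runs *Alas2* fell below the RPKM filter, and the genes of the full comparison were kept instead, a choice made after seeing the data: these gave 0.041 and -0.96 with saline (without WT saline replicate 2 and cKO saline replicate 1) and -1.14 and -1.91 in WT (without WT saline replicate 2 and WT FAEE-SAP replicate 2). For cKO against WT with FAEE-SAP they reached from 0.11 to 1.44 (*Hba-a1*), from -0.0095 to 1.53 (*Hba-a2*), from 0.14 to 1.43 (*Hbb-bs*), from -0.19 to 1.72 (*Hbb-bt*) and from 0.47 to 2.03 (*Alas2*). With saline they reached from -1.08 to 1.43, from -0.96 to 1.33, from -0.93 to 1.33, from -0.96 to 1.51 and from -0.96 to 0.78 (from -0.22 with the filter). In WT they reached from -0.99 to 0.33, from -1.21 to 0.31, from -1.10 to 0.17, from -1.47 to 0.42 and from -1.91 to -0.40, and in cKO from -0.99 to 1.52, from -1.03 to 1.27, from -1.01 to 1.24, from -1.28 to 1.19 and from -0.74 to 1.06. For the interaction they reached from -0.66 to 1.84, from -0.58 to 1.71, from -0.55 to 1.70, from -0.77 to 1.72 and from 0.37 to 2.23. The turns came from leaving out WT FAEE-SAP replicate 1 or either cKO saline library, and, for differences near 0, WT saline replicate 1 (-0.0032 for *Hba-a1*), WT saline replicate 2 (0.041 for *Alas2* with saline) or cKO FAEE-SAP replicate 2 (-0.03 for *Hba-a2* and 0.05 for *Hbb-bt*).

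The replicate numbers are not stated to pair libraries, and deviations of same-numbered libraries correlated over genes at 0.30 between the FAEE-SAP groups, -0.32 between the saline groups, -0.17 within WT and 0.40 within cKO. With the replicate number as a block, limma called 0 of 5 red cell genes in every comparison, and over all genes 568, 0, 442, 52 and 0 (order as above: cKO against WT with FAEE-SAP and with saline, FAEE-SAP in WT and in cKO, interaction). At an unadjusted p below 0.05 the block moved the red cell genes from 0 to 4 of 5 for cKO against WT with FAEE-SAP (*Hba-a1* 0.0322, *Hba-a2* 0.0345, *Hbb-bs* 0.0344 and *Alas2* 0.0254, each a limma p; adjusted p 0.140 to 0.163), while the share of all genes moved from 19.5% to 25.4%. In WT it moved them from 0 to 1 of 5 (*Alas2*, limma p 0.0348, adjusted p 0.183), and the share of all genes from 27.7% to 22.9%. With the numbers of WT saline exchanged, chosen after seeing the data, calls were 0 with saline, 822 in WT and 68 for the interaction.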
